A study of Mus musculus with 11 samples.

Results

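The voltage-gated sodium channel genes described here are Scn1a, Scn2a, Scn3a and Scn8a, which encode pore-forming alpha subunits, and Scn2b, Scn3b and Scn4b, which encode beta subunits. They were taken from the retinal RNA-seq counts of mice by the Ensembl identifier of each symbol, 7 genes of the 47069 counted. The rule uses no measured value, but the members were chosen with earlier results of these data known. Of the 7, 6 passed the filter on low counts, as did 18188 genes in all, and Scn4b did not. The study, by its title, concerned spontaneous retinal activity around birth and the wiring of visual axons outside the image-forming nuclei.

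All mice were C57BL/6 by the strain label, and the retina was taken at postnatal day 4 or 8 (P4, P8). The Kir2.1 group (genotype Brn3b-Kir2.1) carried a human Kir2.1 cDNA, encoding an inward-rectifier potassium channel, fused to eYFP behind a CAG promoter and a floxed STOP cassette, together with the Brn3b-cre line. Brn3b-cre is known to act in retinal ganglion cells, so the transgene was directed to a minority of the cells of a retina. Its cDNA is human, so counts of mouse genes cannot be assumed to check for it. The control group is wild type in the genotype field, while the extraction protocol names Brn3b-cre mice, so whether the controls carried Cre is not settled by the labels. The same protocol gives P11 where the age field gives P8; the field values are used here. The source field names retinal ganglion cells, but the protocol describes dissociated whole retinas with no sorting step. Of the 11 libraries, 2 were wild type and 3 Kir2.1 at P4, and at P8 each genotype had 3. The labels do not say that libraries came from separate animals or how many retinas were pooled, so p-values measure only the spread between these libraries.

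A sodium channel alpha subunit forms the pore whose voltage-dependent opening produces the rising phase of the action potential, and beta subunits associate with it, adjust its gating and act as adhesion molecules. Channels are concentrated at the axon initial segment and nodes of Ranvier by ankyrin-G. In ganglion cells and other central neurons, Nav1.2 is known to occupy the early axon initial segment and unmyelinated axon, and Nav1.6 to take over at the mature initial segment and nodes. Nav1.3 is best known from embryonic and neonatal neurons, and Nav1.1 from inhibitory neurons and the initial segments of several neuron types.

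The 4 groups are compared below as TMM-scaled CPM, a gene's read count scaled to the size of its library. Total gene counts lay between 9362215 (Kir2.1 P8 replicate 2) and 12478838 (Kir2.1 P4 replicate 2). Genes detected numbered 22609 to 24591 in 10 libraries and 31325 in Kir2.1 P8 replicate 2. Marker genes, listed from general knowledge, were detected for every retinal cell class. Over the 11 libraries the sums ranged from 202.7 to 1503.5 CPM for ganglion cells, 1609.1 to 4536.1 for amacrine cells, 372.4 to 1634.2 for horizontal cells, 435.8 to 2505.9 for bipolar cells, 246.4 to 6770.1 for rods, 323.3 to 841.6 for cones and 732.1 to 1396.4 for Mueller glia. They ranged from 69.4 to 2490.2 CPM for dividing cells, 45.6 to 90 for astrocytes, 82.6 to 376.4 for microglia, 346.3 to 748.2 for vascular cells, 4.47 to 23.4 for pigment epithelium, 0.0849 to 19.3 for erythrocytes and 1.25 to 24 for lens. Among ganglion cell markers, Pou4f3 and Atoh7 were each at 0 in 2 libraries; the lens gene Lim2 was at 0 in 10 and the pigment epithelium gene Rpe65 in 8. Libraries of the same group differed in some of these sums, in both genotypes. In Kir2.1 P4 the ganglion cell sum was 771.8, 294.2 and 794.8 CPM in the replicates in order. In Kir2.1 P8 the microglia sum was 279.1, 82.6 and 144.7 CPM. For rods the P8 sums were 754.3, 2965.1 and 6770.1 CPM in the wild-type replicates in order, but 6186.0 to 6514.4 in Kir2.1. At P4 the dividing-cell sum was 2391.1 CPM in wild-type replicate 1 and 862.0 in replicate 2, against 1931.3 to 2490.2 in Kir2.1. These are bulk libraries, in which fewer cells of a type and less RNA per cell cannot be told apart.

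The 7 genes lie on 3 chromosomes (GRCm38, GENCODE M21). Scn3a (ENSMUSG00000057182; chromosome 2, 65457118 to 65567627, minus strand), Scn2a (ENSMUSG00000075318; chromosome 2, 65620771 to 65767447, plus) and Scn1a (ENSMUSG00000064329; chromosome 2, 66270778 to 66440840, minus) share 1 cluster. Scn8a (ENSMUSG00000023033) is on chromosome 15, 100869858 to 101045938, plus strand. Scn3b (ENSMUSG00000049281) is on chromosome 9, 40269217 to 40291618, and Scn2b (ENSMUSG00000070304; 45117782 to 45130070) and Scn4b (ENSMUSG00000046480; 45138395 to 45154152) are neighbours on the same chromosome, all on the plus strand. All 7 are protein-coding. The alpha subunit genes are similar in sequence: 4.03% of the 50-base stretches of Scn1a exons, 5.62% of those of Scn2a and 6.49% of those of Scn3a also occur in another Scn gene, against 0.0374% for Scn8a and 0 for each beta subunit gene. Antisense or other opposite-strand genes overlap Scn1a (Gm13630), Scn3a (Gm13595), Scn2b (Gm10684) and Scn3b (Gm47266) without sharing exon bases, and the strand setting of the counting is not given in the sources used here.

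The 250 bases before a RefSeq transcript start are shown for 4 member genes, chosen to set side by side Scn2a and Scn8a, the early and mature alpha subunits of the axon initial segment, and Scn2b and Scn4b, adjacent genes of which the first was counted in every library and the second was near 0. The sequences are RefSeq windows on GRCm38.p6, plus strand, at chr2:65620519-65620768, chr15:100870395-100870644, chr9:45117626-45117875 and chr9:45138374-45138623 in that order, with CG dinucleotides in capitals. RefSeq and GENCODE place some starts differently: by the GENCODE coordinates above, the Scn8a window lies wholly inside the gene and the Scn2b and Scn4b windows reach into it.
Scn2a: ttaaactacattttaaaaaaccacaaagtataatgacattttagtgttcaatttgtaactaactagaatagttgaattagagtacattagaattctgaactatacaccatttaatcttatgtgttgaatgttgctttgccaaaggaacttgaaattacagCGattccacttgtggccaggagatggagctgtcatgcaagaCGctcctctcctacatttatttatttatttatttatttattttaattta
Scn8a: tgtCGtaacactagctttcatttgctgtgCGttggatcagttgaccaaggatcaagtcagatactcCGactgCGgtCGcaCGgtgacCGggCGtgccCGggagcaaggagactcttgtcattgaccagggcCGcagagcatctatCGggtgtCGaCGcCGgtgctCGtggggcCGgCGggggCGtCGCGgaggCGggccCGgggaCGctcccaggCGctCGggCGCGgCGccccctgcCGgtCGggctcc
Scn2b: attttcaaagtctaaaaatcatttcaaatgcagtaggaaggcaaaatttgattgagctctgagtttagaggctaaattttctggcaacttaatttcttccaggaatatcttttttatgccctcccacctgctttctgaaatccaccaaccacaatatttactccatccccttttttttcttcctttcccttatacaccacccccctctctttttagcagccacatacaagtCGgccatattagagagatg
Scn4b: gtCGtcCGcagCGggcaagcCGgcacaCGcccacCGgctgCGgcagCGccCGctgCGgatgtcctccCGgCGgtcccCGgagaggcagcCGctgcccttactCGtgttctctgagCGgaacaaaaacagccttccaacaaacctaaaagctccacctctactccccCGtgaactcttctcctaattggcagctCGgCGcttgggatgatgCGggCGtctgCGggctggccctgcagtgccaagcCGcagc
The Scn2a and Scn2b windows held 2 and 1 CG dinucleotides, and the Scn8a and Scn4b windows held 30 and 23. The motif searched was CG, which reads the same on both strands. Over 32851 RefSeq windows of this length the median was 6, and 5.94% of windows held as many as Scn8a or more, 13.3% as many as Scn4b or more, 29% as many as Scn2a or fewer and 18.8% as many as Scn2b or fewer. The GC content was 29.6%, 68%, 38.4% and 66% for Scn2a, Scn8a, Scn2b and Scn4b, beside a median of 52.4%. Scn2a and Scn8a each had a second RefSeq start, whose window held 9 CG dinucleotides, and the Scn1a window held 4. In all, 5 of the 7 members had an entry. The 2 windows richest in CG among the printed ones belonged to Scn8a, the member with the highest level, and Scn4b, which was near 0.

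Among the members, levels can be compared per kilobase of exon. Averaged over the 11 libraries, Scn8a stood highest at 10.5 CPM per kilobase, followed by Scn3a at 8.57, Scn3b at 7.63, Scn2a at 5.54, Scn1a at 4.86, Scn2b at 2.89 and Scn4b at 0.0574. With the longest transcript as the length, the order was the same, from 14.5 CPM per kilobase for Scn8a to 2.89 for Scn2b and 0.0574 for Scn4b. The order differed between groups. Scn3a had the highest mean in wild-type P4, at 12.5 ± 0.23 CPM per kilobase (SD, n = 2), with Scn3b at 12.1 ± 1.29 and Scn8a at 9.59 ± 2.41. In wild-type P8, Scn8a led at 11.9 ± 0.04 CPM per kilobase (SD, n = 3), and Scn3a followed at 8.55 ± 2.47.

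**Figure D1:**
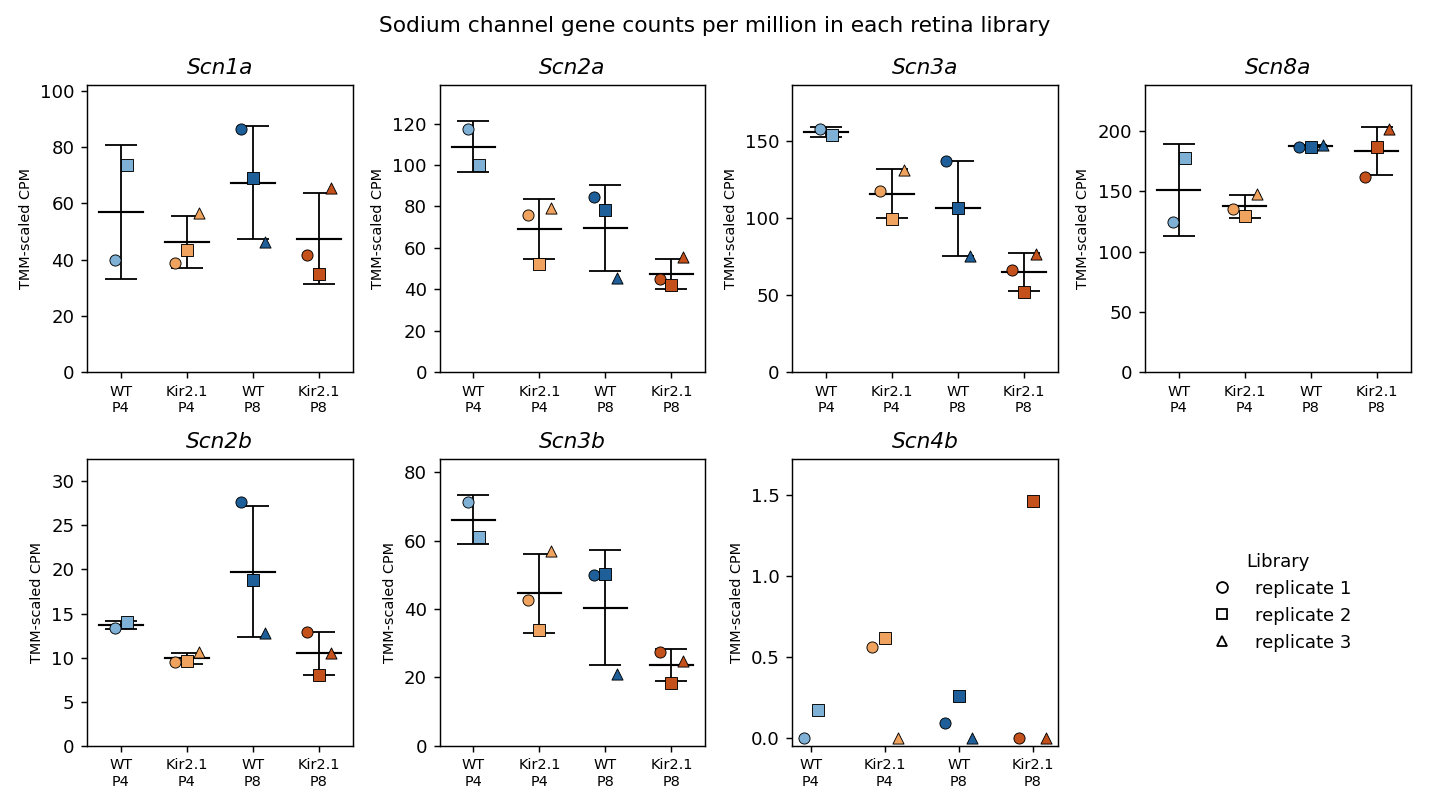
TMM-scaled CPM (linear axes, from 0 except for a small margin under Scn4b) of the 7 sodium channel genes in each library; WT is wild type, symbols mark the replicate, and lines give the group mean and SD (n = 2 in wild-type P4, n = 3 elsewhere; not drawn for Scn4b, which has zeros). Scn2a, Scn3a and Scn3b have their highest mean in wild-type P4 and their lowest in Kir2.1 P8, Scn8a is higher at P8 than at P4 in the Kir2.1 libraries, and wild-type P8 replicate 3 is the lowest of its group for every tested gene but Scn8a.

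With age, the alpha subunit genes went in different directions, and only the lower level of Scn3a at P8 in the Kir2.1 libraries passed the test. Scn3a encodes Nav1.3, the neonatal alpha subunit. Its CPM was 158.2 and 154.0 in wild-type P4, 137.3, 106.7 and 75.7 in wild-type P8, 117.4, 99.2 and 131.4 in Kir2.1 P4 and 66.2, 52 and 76.5 in Kir2.1 P8. Each P8 library lay below every P4 library of its genotype. In Kir2.1, Scn3a fell by 0.84 ± 0.20 on the log2 scale (SE) from P4 to P8, or 1.79-fold (edgeR adjusted p = 0.0151). In wild type the log2 difference was -0.55 ± 0.22 (edgeR adjusted p = 0.194), and -0.36 without wild-type P8 replicate 3. Whether Scn3a passed in Kir2.1 depended on 2 libraries. Without Kir2.1 P4 replicate 3 the log2 difference was -0.74 (edgeR adjusted p = 0.0607). Without Kir2.1 P8 replicate 2 it was -0.70 (edgeR adjusted p = 0.0643). The edgeR adjusted p was 0.0206 to 0.0482 without each of the other 4. Kir2.1 P8 replicate 2, which had the lowest Scn3a value of all libraries, is also the one with the fewest gene counts and the most genes detected.

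Scn2a, which encodes Nav1.2, had 117.5 and 100.1 CPM in wild-type P4, 84.7, 78.4 and 45.6 in wild-type P8, 76, 52.3 and 79 in Kir2.1 P4 and 44.9, 41.9 and 55.4 in Kir2.1 P8. The wild-type P8 libraries were all below the wild-type P4 libraries, and the Kir2.1 ages overlapped through Kir2.1 P4 replicate 2. The log2 difference between ages was -0.65 ± 0.25 in wild type (edgeR adjusted p = 0.172) and -0.54 ± 0.23 in Kir2.1 (0.127). Neither passed the test, and the wild-type value was -0.42 without wild-type P8 replicate 3.

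Scn8a encodes Nav1.6, the alpha subunit of mature initial segments and nodes. It had 124.3 and 178.0 CPM in wild-type P4, 187.1, 186.9 and 188.1 in wild-type P8, 135.0, 129.5 and 147.9 in Kir2.1 P4 and 161.9, 186.8 and 201.9 in Kir2.1 P8. Every P8 library was above every P4 library of its genotype. The SD of the 3 wild-type P8 values was 0.347% of their mean. At 2045, 2201 and 2316 counts this is below counting error alone, so it understates the spread to be expected. The age difference on the log2 scale was 0.31 ± 0.15 in wild type (edgeR adjusted p = 0.294) and 0.42 ± 0.14 in Kir2.1 (0.0553), so neither passed. The wild-type value depended on the P4 library kept: it was 0.59 without wild-type P4 replicate 2 (edgeR adjusted p = 0.0492) and 0.07 without replicate 1. In Kir2.1, the DESeq2 test (adjusted p = 0.0343) and limma voom (0.0223) did call Scn8a.

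Scn1a, which encodes Nav1.1, showed no separation of groups. Its CPM was 39.9 and 73.7 in wild-type P4, 86.5, 69.1 and 46.3 in wild-type P8, 38.6, 43.4 and 56.6 in Kir2.1 P4 and 41.7, 34.9 and 65.6 in Kir2.1 P8. The spread within wild type was wide at both ages, with SDs of 23.9 and 20.2 CPM, and all 4 groups overlapped. The log2 difference between ages was 0.24 ± 0.33 in wild type (edgeR adjusted p = 0.749) and 0.04 ± 0.30 in Kir2.1 (0.957). Single libraries turned the direction: leaving out 1 library gave -0.14 to 0.76 in wild type and -0.27 to 0.21 in Kir2.1.

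Of the beta subunit genes, Scn3b resembled Scn2a and Scn3a, and Scn2b did not. Scn3b encodes beta3, a subunit known from the embryonic and early postnatal brain. It had 71.2 and 61.2 CPM in wild-type P4, 49.9, 50.4 and 21 in wild-type P8, 42.8, 34 and 56.9 in Kir2.1 P4 and 27.4, 18.5 and 24.9 in Kir2.1 P8. Each P8 library was below every P4 library of its genotype. The log2 difference was -0.71 ± 0.32 in wild type (edgeR adjusted p = 0.25) and -0.91 ± 0.30 in Kir2.1 (0.0565), and in Kir2.1 the DESeq2 test (adjusted p = 0.0177) and limma voom (0.021) called it. Without wild-type P8 replicate 3 the wild-type value was -0.40.

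Scn2b encodes beta2, which is linked to the alpha subunit by a disulfide bond. It had 13.4 and 14 CPM in wild-type P4, 27.6, 18.8 and 12.8 in wild-type P8, 9.47, 9.65 and 10.6 in Kir2.1 P4 and 12.9, 8.02 and 10.5 in Kir2.1 P8. The highest 2 values were wild-type P8 replicates 1 and 2, and the ages overlapped in both genotypes. The log2 difference with age was 0.52 ± 0.30 in wild type (edgeR adjusted p = 0.376) and 0.09 ± 0.27 in Kir2.1 (0.881). In wild type, leaving out P8 replicate 1 gave 0.19 and leaving out P8 replicate 3 gave 0.76, and the Kir2.1 value turned to -0.09 without Kir2.1 P8 replicate 1.

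Scn4b encodes beta4, the subunit known for resurgent sodium current in some neurons, and it was close to absent. Its raw counts were 0 and 2 in wild-type P4, 6, 8 and 0 in Kir2.1 P4, 1, 3 and 0 in wild-type P8 and 0, 14 and 0 in Kir2.1 P8. The 14 counts, 1.46 CPM, came from Kir2.1 P8 replicate 2, the library with the most genes detected. In the 5 libraries with 0 counts, a level of up to 0.244 to 0.267 CPM is allowed (3 counts, counting error only). No comparison of groups was made for it, and its absence from 5 of 11 libraries cannot be told from a low level at this depth.

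Counted over the tested members, 0 of 6 were called between ages in wild type, where 4.39% of all genes were called, and 3 of 6 had an unadjusted p under 0.05 (19.6% of all genes). DESeq2 and limma voom also called 0 of 6 in wild type, among 1580 of 15365 and 964 of 18188 genes called. Without a filter, edgeR called Scn2a (adjusted p = 0.00557), Scn3a (0.0166) and Scn3b (0.00605) among 2058 of 36534 genes, and Scn3a was called without wild-type P8 replicate 1 (0.0422). The number of all genes called in wild type, 798, itself moved to between 163 and 1338 when 1 library was left out. In Kir2.1, 1 of 6 was called, Scn3a, and it was lower at P8, as were 8.73% of all genes, with 16.7% called in either direction. Groups did not overlap for 4 of 6 members with age in wild type (3 lower, 1 higher; 16.9% and 14.2% of all genes) and for 3 of 6 in Kir2.1 (2 lower, 1 higher; 18.7% and 19.4%). The members' median log2 difference was -0.15 for wild type (all genes, 0.03) and -0.25 for Kir2.1 (all genes, 0.00). The wild-type P4 libraries also serve as controls for the Kir2.1 comparison at P4, so these comparisons are not independent of each other. Cell type markers also differed with age in the same libraries. Each of 8 dividing-cell genes was called lower at P8 in both genotypes. All 10 rod genes were higher at P8 in both genotypes, with 10 called in Kir2.1 and 0 in wild type. All 10 bipolar genes were higher in both, with 9 called in Kir2.1 and 1 in wild type. Of 14 ganglion cell genes, 11 in wild type and 9 in Kir2.1 were called lower (1 higher in Kir2.1). The part of these markers in the members' differences with age was not tested.

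Ordered by mean CPM, Scn3a and Scn3b shared one order, wild-type P4, Kir2.1 P4, wild-type P8 and Kir2.1 P8, in which only the first 2 neighbours did not overlap. Scn2a ran from wild-type P4 to wild-type P8, Kir2.1 P4 and Kir2.1 P8, again with only the first 2 apart. Scn2b and Scn1a ran from wild-type P8 to wild-type P4, Kir2.1 P8 and Kir2.1 P4. For Scn2b the only neighbours without overlap were wild-type P4 and Kir2.1 P8, and for Scn1a all neighbours overlapped. Scn8a ran from wild-type P8 to Kir2.1 P8, wild-type P4 and Kir2.1 P4, with overlap at every step.

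**Figure D2:**
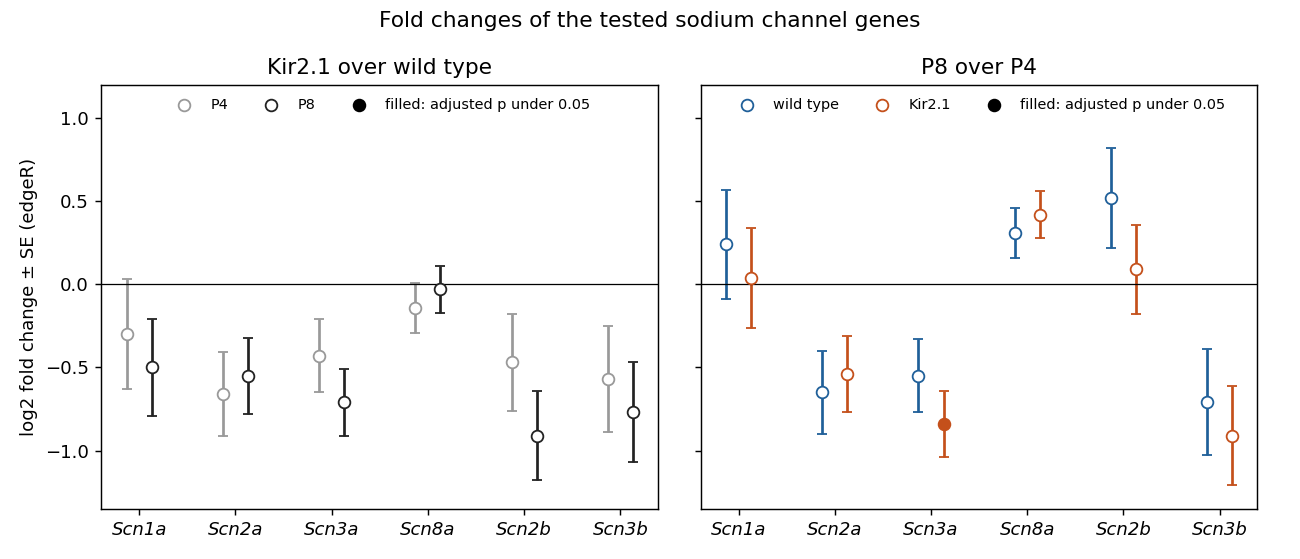
Log2 fold changes (± SE, edgeR) of the 6 tested sodium channel genes, Kir2.1 over wild type at each age on the left and P8 over P4 in each genotype on the right; filled points have an adjusted p under 0.05. All 12 genotype differences lie below 0 and none passed, while with age only Scn3a in Kir2.1 is filled, at -0.84.

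The balance among the 4 alpha subunit genes was described as the share of each in their summed CPM per kilobase, without a test. Scn8a made up 23.6% and 29.6% in wild-type P4, 31.2%, 34% and 30.1% in Kir2.1 P4, 31.8%, 36.2% and 46.3% in wild-type P8 and 45%, 52.8% and 43.9% in Kir2.1 P8. It was thus the largest share in all 6 P8 libraries, and in 1 P4 library, Kir2.1 P4 replicate 2. Scn3a had the largest share in the other 4 P4 libraries, at 32.4% to 38%. Its share was 18.6% to 23.2% in Kir2.1 P8 and 23.6% to 29.5% in wild-type P8. The Scn2a share was 27.7% and 20.6% in wild-type P4, 17% to 21.8% in Kir2.1 P4, 13.9% to 18.8% in wild-type P8 and 14.7% to 15.4% in Kir2.1 P8, lowest in wild-type P8 replicate 3. Scn1a stayed between 10.7% and 20.8% in every library.

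**Figure D3:**
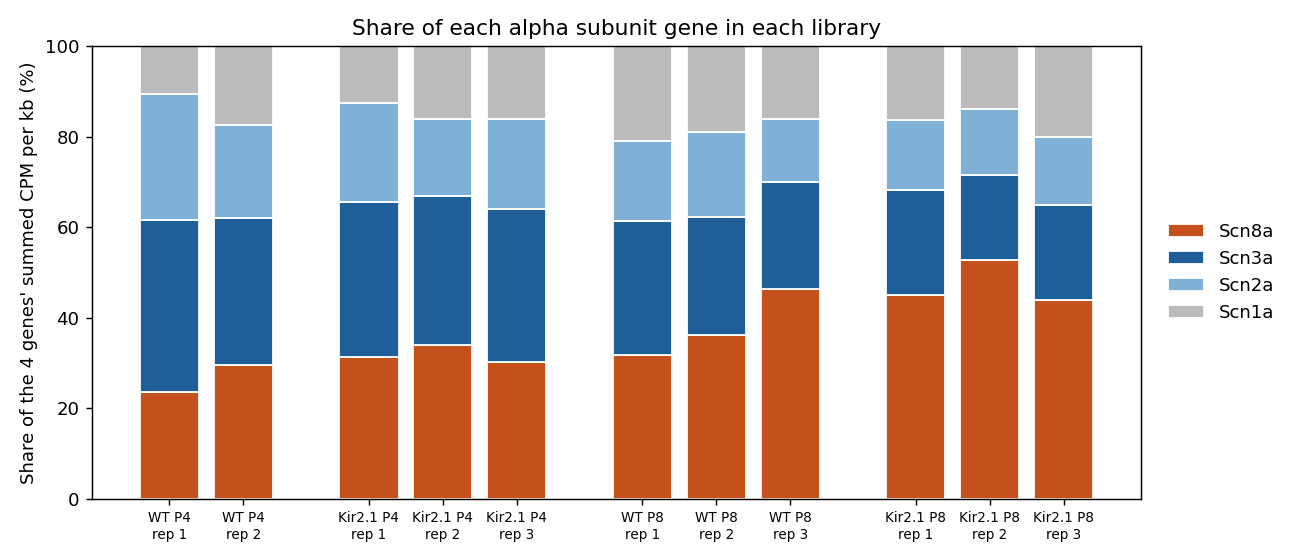
Share (%) of Scn1a, Scn2a, Scn3a and Scn8a in the sum of their CPM per kilobase of exon, 1 stacked bar per library, grouped by genotype and age. The Scn8a segment runs from 23.6% in wild-type P4 replicate 1 to 52.8% in Kir2.1 P8 replicate 2, and wild-type P8 replicate 3, at 46.3%, lies among the Kir2.1 P8 libraries.

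The ratio of Scn8a to Scn2a, each per kilobase, was lowest and highest in the same libraries as the Scn8a share. It was 0.854 and 1.44 in wild-type P4, 1.44, 2 and 1.51 in Kir2.1 P4, 1.78, 1.93 and 3.33 in wild-type P8 and 2.91, 3.6 and 2.94 in Kir2.1 P8. The P8 values were above the P4 values within each genotype, and at P8 wild-type replicate 3 fell inside the Kir2.1 range while replicates 1 and 2 were below it. On the log2 scale the ratio ran from -0.23 to 1.85, and from -0.28 to 1.80 with the longest transcript as the length. The summed alpha level was 33.4 and 38.1 CPM per kilobase in wild-type P4, 27.4, 24.2 and 31.2 in Kir2.1 P4, 37.3, 32.8 and 25.7 in wild-type P8 and 22.8, 22.4 and 29.2 in Kir2.1 P8.

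With Kir2.1 at P4, 0 of 6 members were called, where 0% of all genes were called by edgeR (smallest adjusted p = 0.458). Values were lower in Kir2.1 for 6 of 6, where 48.7% of all genes were, and the members' median log2 difference was -0.45 beside 0.01. The Scn2a difference was the largest in size at -0.66 ± 0.25 (SE; edgeR adjusted p = 0.677), with every Kir2.1 library, 52.3 to 79 CPM, below both wild-type libraries. Scn3b differed by -0.57 ± 0.32 (edgeR adjusted p = 0.721), Scn2b by -0.47 ± 0.29 (0.737) and Scn3a by -0.43 ± 0.22 (0.704), each also without overlap of the groups. Such a lower, non-overlapping position held for 4 of 6 members and for 14.4% of all genes. Scn1a, at -0.30 ± 0.33 (edgeR adjusted p = 0.852), and Scn8a, at -0.14 ± 0.15 (0.852), overlapped. These last 2 rested on wild-type P4 replicate 2, without which they were 0.22 and 0.15.

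One member, Scn2a, had an unadjusted p under 0.05 at P4 (0.0205), as did 7.22% of all genes. DESeq2 and limma voom called 0 of 6, with 33 of 14660 and 0 of 18188 genes called, and edgeR without a filter called Scn2a (adjusted p = 0.0214) among 339 of 36534 genes. Markers of several cell types differed with the genotype in the same libraries. The ganglion cell sum was 1503.5 and 976.1 CPM in wild type and 771.8, 294.2 and 794.8 in Kir2.1, with 13 of 14 genes lower in Kir2.1 by a median log2 of -0.94 and 0 called. The library with the lowest ganglion cell sum, Kir2.1 P4 replicate 2, was also the lowest of its age for Scn2a, Scn3a and Scn3b. Bipolar cell genes were lower in 8 of 10 (median -1.91), vascular genes in 7 of 8 (-0.83) and horizontal cell genes in 6 of 6 (-0.51), with 0 called. The summed levels of these 3 lists overlapped between genotypes. The mean vascular sum was higher in Kir2.1, at 602.0 CPM against 513.3 in wild type. Higher in Kir2.1 were 8 of 8 dividing-cell genes (median 0.29), 7 of 8 Mueller glia genes (0.29) and 7 of 7 microglia genes (0.27), with 0 called. Of these, the Mueller glia sums did not overlap, at 1005.8 to 1076.1 CPM in wild type and 1118.2 to 1396.4 in Kir2.1. The part of these markers in the members' differences was not tested.

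With Kir2.1 at P8, edgeR again called 0 of 6 members and 0% of all genes (smallest adjusted p = 0.7). All 6 tested members were lower in Kir2.1, beside 49.5% of all genes, with a median log2 difference of -0.63 beside 0.00. The largest difference was that of Scn2b, at -0.91 ± 0.27 (SE; edgeR adjusted p = 0.7). Scn3b followed at -0.77 ± 0.30 (edgeR adjusted p = 0.7), Scn3a at -0.71 ± 0.20 (0.7), Scn2a at -0.55 ± 0.23 (0.7) and Scn1a at -0.50 ± 0.29 (0.702). Scn8a differed by -0.03 ± 0.14 (edgeR adjusted p = 0.972), with group means of 187.3 ± 0.65 CPM in wild type and 183.5 ± 20.2 in Kir2.1 (SD, n = 3). An unadjusted p under 0.05 was found for 4 of 6 members (Scn2a, Scn3a, Scn2b and Scn3b) and 6.82% of all genes. DESeq2 and limma voom called 0 of 6, with 3 of 18186 and 0 of 18188 genes called, and edgeR without a filter on low counts called those 4 (edgeR adjusted p = 0.0462, 0.000674, 0.0442 and 0.00337 in that order) among 447 of 36534 genes.

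The groups overlapped at P8 for all 6 tested members, so that 0 of 6 were separated in the lower direction where 5.11% of all genes were. For Scn2a, Scn3a, Scn2b, Scn3b and Scn1a, the overlap came from wild-type P8 replicate 3, which had the lowest wild-type value of each. Its Scn3b level, 21 CPM, was below Kir2.1 P8 replicates 1 and 3, at 27.4 and 24.9. Without that library, 3 members were called lower in Kir2.1, where 0.677% of all genes were called lower and 1.21% in either direction. These were Scn2b, which then fell by 1.14 ± 0.24 on the log2 scale (edgeR adjusted p = 0.0444), Scn3b, which fell by 1.08 ± 0.21 (0.0408), and Scn3a, which fell by 0.91 ± 0.17 (0.0375). Scn2a was -0.78 ± 0.18 (edgeR adjusted p = 0.0563), Scn1a -0.71 ± 0.29 (0.192) and Scn8a -0.03 ± 0.15 (0.953). Without wild-type P8 replicate 1, in contrast, the same 5 genes other than Scn8a lay between -0.28 (Scn1a) and -0.60 (Scn3b), and 0 of 6 were called.

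**Figure D4:**
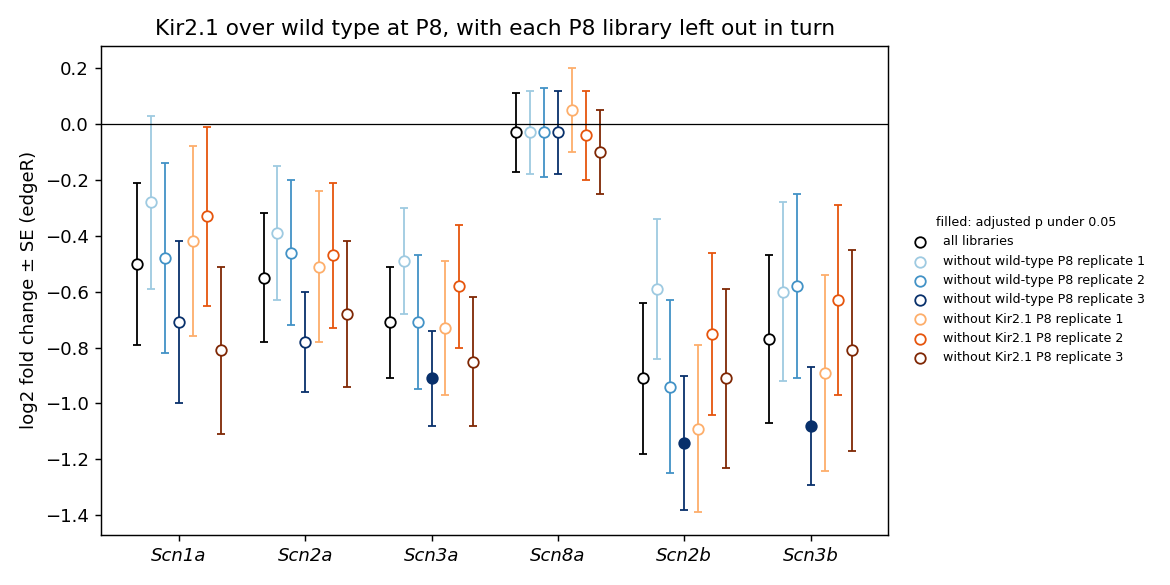
Log2 difference (± SE, edgeR) of Kir2.1 over wild type at P8 for the 6 tested genes, with all libraries and with each P8 library left out in turn; filled points have an adjusted p under 0.05. The only filled points, for Scn3a, Scn2b and Scn3b, are those without wild-type P8 replicate 3, and Scn8a stays between -0.10 and 0.05.

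Markers of other cell types differed between the same libraries. Wild-type P8 replicate 3 had the highest rod sum, 6770.1 CPM against 754.3 and 2965.1 in the other two, and the lowest amacrine sum, 1867.4 CPM against 4536.1 and 3477.4. The Kir2.1 P8 libraries had rod sums of 6186.0 to 6514.4 CPM and amacrine sums of 1609.1 to 2552.9. At P8, 10 of 10 amacrine genes were lower in Kir2.1 (median log2 difference -0.54), 10 of 10 rod genes were higher (0.88), and 11 of 14 ganglion cell genes were lower (-0.17). Higher in Kir2.1 were also 10 of 10 bipolar genes (0.25), 8 of 8 Mueller glia genes (0.18), 7 of 7 microglia genes (0.39), 7 of 8 dividing-cell genes (0.56) and 3 of 4 tested pigment epithelium genes (3.83), whose sum was at most 23.4 CPM. None of these marker genes was called. The ganglion cell sum overlapped, at 202.7 to 335.6 CPM in wild type and 217.5 to 290.7 in Kir2.1. Rod genes were above 0 in all 11 libraries and in both genotypes. The part of these cell classes in the members' values was not tested.

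The difference between the genotype effects at the 2 ages was called for 0 of 6 members and 0% of all genes (edgeR, adjusted p = 1 for each member). It ranged from -0.44 ± 0.40 for Scn2b to 0.11 ± 0.20 for Scn8a (log2, SE). An unadjusted p under 0.05 was found for 0 of 6 members and 3.09% of all genes, and DESeq2 and limma voom called 0 of 6. The data thus did not separate the Kir2.1 effect at P8 from that at P4 for any member, with standard errors of 0.20 to 0.44.

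In the authors' deposited table for P8, the log2 fold changes were -1.15 for Scn2b (adjusted p = 0.00962), -1.10 for Scn3b (0.000395), -0.94 for Scn3a (0.00104) and -0.76 for Scn2a (0.00551). The authors' deposited table gave -0.70 for Scn1a (adjusted p = 0.0716) and -0.03 for Scn8a (0.967) at that age. At P4, the authors' deposited table listed Scn8a at -0.55 (adjusted p = 0.0381) and Scn2a at -0.65 (0.0693), with Scn1a at -0.59 (0.25), Scn2b at -0.47 (0.678), Scn3b at -0.41 (0.541) and Scn3a at -0.34 (0.432). Which libraries entered the authors' deposited table is not given in the sources used here. The counts gave -0.14 for Scn8a at P4 with both wild-type libraries and -0.38 without wild-type P4 replicate 1 (edgeR adjusted p = 0.567). At P8, the counts without wild-type P8 replicate 3 gave -1.14 for Scn2b, -1.08 for Scn3b, -0.91 for Scn3a and -0.78 for Scn2a, as above.

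Other genes of the channel family were taken from a list of 8, of which 7 were tested and Scn10a was not. Genotype effects were called for 0 of 7 at either age (0% of all genes). At P4, 6 of 7 were below 0 (48.7% of all genes), with a median of -0.74 beside 0.01. At P8, 5 of 7 were (49.5%), with a median of -0.26 beside 0.00. Both medians are the values of Scn7a, with SEs of 0.99 at P4 and 0.94 at P8 and 1 to 20 counts per library. Scn11a, with 0 to 23 counts, and Scn4a, with 0 to 40, were also near the floor. Scn9a, which encodes Nav1.7 and lies in the same chromosome 2 cluster, fell with age in both genotypes. In wild type it went from 45.5 to 11.8 CPM (log2 -1.94 ± 0.41, edgeR adjusted p = 0.0187), and in Kir2.1 from 25.6 to 8.29 CPM (log2 -1.63 ± 0.39, edgeR adjusted p = 0.0143). It was the only one of the 7 called in any comparison; with age, 4.39% of all genes were called in wild type and 16.7% in Kir2.1. Scn4a, known from skeletal muscle, averaged 1.88 CPM, and Nalcn, the sodium leak channel, averaged 75.

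A list of 20 genes whose products anchor or modulate sodium channels, or share the axon initial segment and node with them, was tested in full. With Kir2.1, 0 of 20 were called at either age, with 19 of 20 lower at P4 (48.7% of all genes) and 20 of 20 at P8 (49.5%). The median log2 differences were -0.32 and -0.42. The groups were apart, with Kir2.1 lower, for 12 of 20 at P4 (14.4% of all genes) and for 2 of 20 at P8 (5.11%). With age, 3 of 20 fell in wild type, where 4.39% of all genes were called in either direction. In Kir2.1, 3 rose and 5 fell, where 16.7% of all genes were called and 8.73% called lower. Nfasc, which encodes neurofascin, an adhesion molecule of the initial segment and node, rose from 195.2 to 469.3 CPM in Kir2.1 (log2 1.27 ± 0.21, edgeR adjusted p = 0.00182). Its wild-type means were 296.9 CPM at P4 and 535.8 at P8, without overlap (log2 0.85 ± 0.23, edgeR adjusted p = 0.0629). Cntnap1, which encodes the paranodal protein Caspr, rose in Kir2.1 from 12.8 to 25.8 CPM (edgeR adjusted p = 0.0125). L1cam, an axonal adhesion molecule, fell from 281.4 to 120.7 CPM in wild type (edgeR adjusted p = 0.0155) and from 172.5 to 85.1 in Kir2.1 (0.0109). Fgf13, which encodes an intracellular factor that binds sodium channels, fell from 37.4 to 21.7 CPM in wild type (edgeR adjusted p = 0.0255) and from 30.4 to 16.6 in Kir2.1 (0.0037). Cntn2, a contactin of the juxtaparanode, fell from 33.9 to 15.9 CPM in wild type (edgeR adjusted p = 0.044) and from 26.2 to 14.5 in Kir2.1 (0.0373).

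Across the 11 libraries, which share group and cell makeup so that the coefficients are descriptions only, Scn2a, Scn3a and Scn3b ran closely together, with Pearson r of log2 CPM of 0.944 (Scn2a and Scn3a), 0.955 (Scn2a and Scn3b) and 0.954 (Scn3a and Scn3b). Scn1a and Scn2b had an r of 0.735. Scn8a ran against the first set, with r of -0.334 with Scn2a, -0.427 with Scn3a and -0.449 with Scn3b, and it had an r of 0.53 with Scn1a. The members' closest genes among 12229 with a mean of at least 5 CPM were Kif3c and Ina for Scn2a (r = 0.978 for each), Nsg1 (0.978) and Dclk1 (0.974) for Scn3a, and 6330403K07Rik (0.98) and Nmnat2 (0.979) for Scn3b. They were Stxbp5l (0.969) and Zfp641 (0.966) for Scn8a, Csmd1 (0.976) and Ddhd2 (0.959) for Scn1a, and Mgat3 (0.959) and Nap1l3 (0.957) for Scn2b. No gene was named for more than 1 member. The marker sums varied over the same libraries. With the ganglion cell sum, r was 0.842 for Scn2a, 0.833 for Scn3b and 0.794 for Scn3a, and -0.625 for Scn8a. Scn3a had an r of -0.852 with the rod sum and 0.838 with the amacrine sum. Scn8a had 0.883 with the horizontal cell sum and -0.873 with the dividing-cell sum. In the horizontal cell list, Prox1 ranged from 194.6 to 1461.5 CPM, and no other gene exceeded 111.1. With age in wild type, 3 genes of that list were higher and 3 lower, so this r chiefly describes Prox1.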

How the data were processed

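RNA was measured in 11 bulk libraries of dissociated mouse retina. The authors deposited whole-number read counts per Ensembl gene, 1 table per library. Per the submitters' processing notes, mm10 was the genome and cutadapt 1.18, STAR 2.5.0c, SAMtools 1.9, bedtools 2.26.0, HTSeq 0.6.1 and DESeq2 were used, with no role given. The annotation and strand setting are not given in the sources used here. The 6 closing lines of each table are not genes and were left out; they held 74.6% to 79.8% of all counts in a table. The authors also deposited a table per age with, per the file headers, a mean normalized count (a signal in their own scaling), a log2 fold change, a test statistic (a score) and p-values, raw and adjusted. These are quoted as the authors' own.

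Groups came from the sample titles. Genes were filtered by filterByExpr (18188 of 47069 kept), scaled by TMM (factors 0.964 to 1.05) and fitted with 4 group means over all 11 libraries by the edgeR 4.0.16 quasi-likelihood test in R 4.3.3 (7 residual degrees of freedom, biological coefficient of variation 0.247). p-values were adjusted by Benjamini and Hochberg over all genes tested, threshold 0.05, for 5 contrasts. The SE is the fold change over the square root of F. CPM values are TMM-scaled. Symbols matched 46488 of the IDs. Exon unions came from GENCODE M21 on GRCm38, the genome that mm10 names. Libraries had 9362215 to 12478838 gene counts, none were identical, and their log2 CPM correlated pairwise at 0.908 to 0.976. The test was checked on simulated counts whose spread was set below that of these data, so the check does not measure its power here. Alternatives were DESeq2 1.42.0 size factors and test, limma 3.58.1 voom with quality weights, other filters, a replicate block, the compared groups alone and leaving out each library.

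All 7 members are named, and the members, lists and markers were chosen with earlier results of these data known. From the channel and partner lists, genes past the threshold were named, at most the 4 largest changes per list and contrast, and channel genes with a mean of at least 1 CPM. Some genes that this rule names are not reported here. The like genes were the 2 with the highest Pearson r of log2 CPM (prior count 2) and a mean of at least 5 CPM.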

Additional observations from a re-analysis of the deposited data

How the results depend on the processing

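The members' log2 differences kept their sign under DESeq2 size factors, the DESeq2 test, limma voom, a minimum mean of 1 CPM, no filter and the replicate block. They also did with the compared groups alone. That last setting was not run for the Kir2.1 effect at P8 minus the effect at P4, called the difference between ages below. The numbers of calls moved more. The DESeq2 test called 33 genes at P4 and 3 at P8 between genotypes and 1580 with age in wild type, where edgeR called 0, 0 and 798. Without a filter, edgeR called 339 at P4, 447 at P8, 136 for the difference between ages and 2058 with age in wild type, and the groups compared alone gave 113 in the latter. Of the members, DESeq2 called 3, limma voom 3, no filter 4 and the compared groups alone 4 with age in Kir2.1, where the main count was 1. The same fits called 3793 of 17480 genes, 4285 of 18188, 3661 of 36534 and 4264 of 16512, against 3029 of 18188. No filter also called 1 member at P4, 4 at P8 and 3 with age in wild type. The cause was not tested.

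Leaving out each library in turn gave 0 to 6 genes called at P4, 0 to 219 at P8, 0 to 1 for the difference between ages, 163 to 1338 with age in wild type and 1764 to 2169 with age in Kir2.1. The members called ranged from 0 to 0 at P4 and for the difference between ages, from 0 to 3 at P8, and from 0 to 1 with age in either genotype. Scn3a passed with age in wild type without wild-type P8 replicate 1 (log2 -0.79, edgeR adjusted p = 0.0422), against -0.36 without replicate 3. Signs reversed for Scn1a at P4 (-0.68 to 0.22), in the difference between ages (-0.72 to 0.17), with age in wild type (-0.14 to 0.76) and in Kir2.1 (-0.27 to 0.21), and for Scn8a at P4 (-0.38 to 0.15), at P8 (-0.10 to 0.05) and in the difference (-0.18 to 0.35). They also reversed for Scn2b with age in Kir2.1 (-0.09 to 0.24) and, in the difference, for Scn2a (-0.12 to 0.26) and Scn3b (-0.51 to 0.01). A wild-type P4 group left with 1 library was assumed to vary like the others.

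Equal replicate numbers showed no clear pairing of libraries. Same-number deviations from group means correlated at -0.0757 to 0.139. Against the Kir2.1 P8 libraries, 1 of 3 wild-type P8 libraries correlated best with its own number. Deviations from means of 2 or 3 libraries depend on each other, so this is a weak check for a shared batch. With the replicate block, 0 genes were called at P4, at P8 and for the difference, 558 with age in wild type and 2929 in Kir2.1, and the 1 member call, Scn3a, kept its value of -0.84 (edgeR adjusted p = 0.0209). The 2 wild-type libraries at P4 limit every comparison with that group. Members other than Scn4b had at least 77 counts in each library, so depth chiefly limits Scn4b.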
